A study of Homo sapiens with 6 samples.

Results

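The lysosome and autophagy genes were 46 protein-coding genes chosen by name, out of 19663 protein-coding genes of the GENCODE annotation. They fall into 15 lysosomal hydrolases, 7 lysosomal membrane proteins and cofactors, 10 subunits of the proton pump (the V-ATPase), 2 transcription factors and 12 autophagy genes. Each gene was linked to the accessible regions of its promoter, which lie at least in part within 2 kb of a start site, and to distal regions, whose middle lies closest to a start site of that gene and within 100 kb of it. This gave 65 promoter regions of 20094 and 122 distal regions of 55158, out of 108542 regions in all.

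The regions come from ATAC-seq, in which a transposase inserts sequencing adapters into open DNA, of EndoC-βH3 cells. This is a single human pancreatic beta cell line, labelled WT, that carries a Cre recombinase activated by 4-hydroxytamoxifen (4-OHT) and the immortalising transgenes hTERT and SV40 large T antigen, which Cre removes. The 3 libraries of the senescent group were made after 3 weeks of 4-OHT and the 3 libraries of the non-senescent group were untreated controls, each from 100000 cells. The values used here are, for each region, the mean signal that the authors computed over all 6 libraries from normalised read counts. This mean joins senescent and non-senescent cells and has no column for a library, so the values below describe the accessible chromatin of both states together. They do not show a change with senescence, they carry no replicate error, and the depth of each library is not in them. Levels were compared between genes as mean signal per kb of region width. Since the assay was done on bulk cells, a promoter open in fewer cells and one open less in each cell cannot be told apart.

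Lysosomes are acidic organelles in which hydrolases break down proteins, lipids and sugars. The V-ATPase pumps the protons that keep them acidic, and autophagy brings cytoplasm and worn-out organelles to them in double-membraned vesicles. The transcription factors TFEB and MITF belong to a family that binds the E-box CACGTG, and an extended form of this E-box, known as the CLEAR element, is common in promoters of lysosomal genes. Lysosomes matter to senescence research because senescence-associated beta-galactosidase activity, the stain most used to find senescent cells, comes from the lysosomal enzyme encoded by GLB1.

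The labelled cell type was looked at first. The beta cell genes PDX1, NKX6-1, NKX2-2, NEUROD1, ISL1 and INS all had promoter regions, from 1186 per kb at ISL1 to 2164 per kb at NEUROD1, whose region is shared with CERKL. The region of INS, at 1427 per kb, is shared with IGF2. The leukocyte gene PTPRC and the hepatocyte gene ALB had no promoter region. Those of COL1A1, a fibroblast gene, and PECAM1, an endothelial gene, had 119 and 144 per kb, whereas the macrophage marker CD68, which itself encodes a lysosomal protein, had 921 per kb.

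The E-box sequences of the promoters are shown first, because their frequency differed from that at other genes. The 8-letter palindrome TCACGTGA, which contains the E-box CACGTG, was found in the strongest promoter region of 10 genes. A stretch around it is printed for 7 of them from the hg38 reference, 5′ to 3′ on the strand of the gene, with the palindrome in capitals. A second palindrome stands in lower case in the stretch of MCOLN1.
ATP6V0D1, chr16:67481180-67481247, minus strand: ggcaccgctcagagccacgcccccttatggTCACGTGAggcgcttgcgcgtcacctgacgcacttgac
ATP6V1A, chr3:113746667-113746734, plus strand: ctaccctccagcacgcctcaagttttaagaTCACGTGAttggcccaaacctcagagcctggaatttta
CLN3, chr16:28492058-28492087, minus strand: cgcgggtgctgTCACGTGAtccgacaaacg
CTSA, chr20:45891298-45891327, plus strand: ggcgccggagtTCACGTGActcgtacacat
GAA, chr17:80101538-80101567, plus strand: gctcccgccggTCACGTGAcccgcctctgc
LAMP1, chr13:113297213-113297268, plus strand: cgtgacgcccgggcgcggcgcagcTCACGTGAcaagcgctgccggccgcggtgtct
MCOLN1, chr19:7522579-7522646, plus strand: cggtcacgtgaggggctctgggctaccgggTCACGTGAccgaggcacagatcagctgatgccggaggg

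These 10 genes span most of the roles. HEXA (a beta-hexosaminidase subunit), CTSA (cathepsin A) and GAA (acid alpha-glucosidase) encode hydrolases, and LAMP1, MCOLN1 and CLN3 encode membrane proteins, of which LAMP1 is the abundant glycoprotein of the lysosomal surface and MCOLN1 a calcium channel. ATP6V0D1, ATP6V1A and ATP6V1H encode pump subunits, and BECN1 encodes a subunit of the lipid kinase complex that starts autophagosomes. GAA, LAMP1 and MCOLN1 held 2 copies each. LAMP1 had 6 copies of the shorter E-box CACGTG, more than any other of the genes. By role, the palindrome was found in 3 of 7 promoter regions of membrane proteins and cofactors, 3 of 10 of V-ATPase subunits, 3 of 14 of hydrolases, 1 of 12 of autophagy genes and 0 of 2 of transcription factors.

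Over whole regions, 10 of 45 promoter regions of the lysosome and autophagy genes (22.2%, 95% Wilson interval 12.5 to 36.3) held TCACGTGA on either strand. The share was 2.65% over the 15448 other genes with a promoter region. It was 2.94% when the other genes were weighted to the same mean signal, and 2.76% when they were weighted to the same width. For TCACGTG, 17 of 45 regions (37.8%) held a match, against 11.02% of other genes, and for CACGTG alone it was 20 of 45 (44.4%, interval 30.9 to 58.8) against 23.9%. These 3 motifs are nested, so their counts overlap. TGCGCA, a control made of the same letters as CACGTG, was found in 31.1% of regions, against 27.6% of other genes. It is not a control for the longer motifs. TGACTCA, the AP-1 motif, was found in 13.3%, against 10.2%.

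The span that was searched changed these shares. In the 300 bp around the middle of the region, the span chosen first, CACGTG was found in 8 of 45 regions (17.8%, interval 9.29 to 31.3), against 6.97% of other genes. The control TGCGCA was found there in 15.6%, a share close to that of CACGTG, against 10.1% of other genes. TCACGTGA was left in 2 regions (4.44%), those of CLN3 and HEXA, against 0.854%. In the RefSeq promoter windows, from 250 bases before to 50 after the start and matched for 36 of the genes, TCACGTGA was found in 6 of 36 (16.7%), against 1.43% of other genes. In all, 20 such shares were computed, from 5 motifs over 4 spans, and the whole region and the 8-letter form were singled out after the shares had been seen. Such E-boxes in lysosomal promoters are also textbook knowledge. The shares are therefore a description of sequence, and they say nothing of whether a factor was bound.

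**Figure D1:**
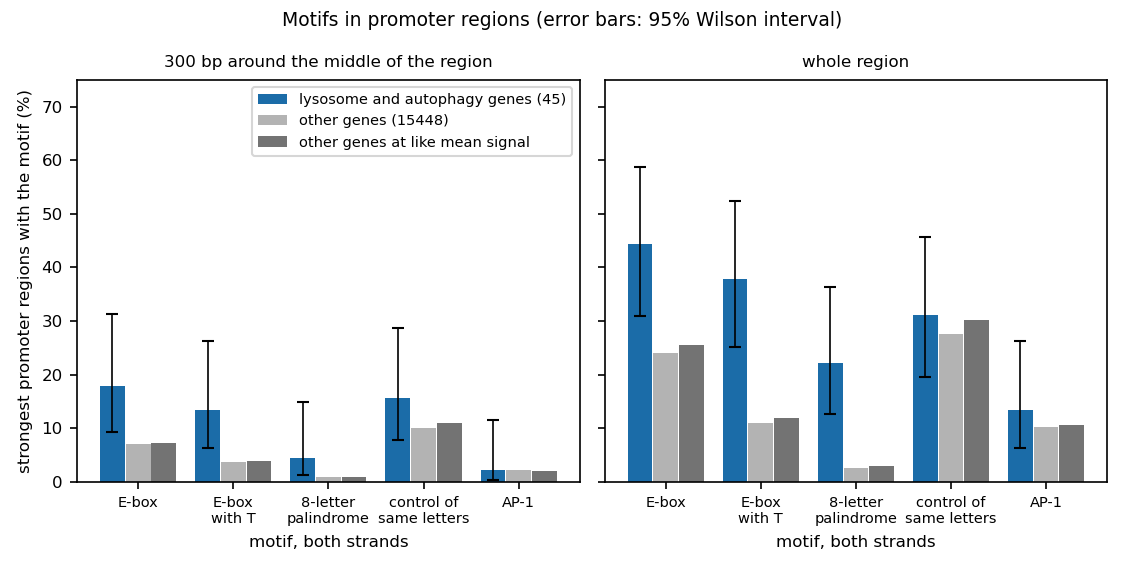
Share of strongest promoter regions (%) that hold each motif, in 300 bp around the middle (left) and in the whole region (right), for 45 lysosome and autophagy genes (blue, with 95% Wilson intervals), all 15448 other genes (light grey) and other genes weighted to the same mean signal (dark grey). E-box is CACGTG, the form with T is TCACGTG and the 8-letter palindrome is TCACGTGA. The control is TGCGCA, made of the same letters as CACGTG, and AP-1 is TGACTCA. Over the whole region the palindrome stood at 22.2% against 2.65%. CACGTG stood there at 44.4% against 23.9%, and its control at 31.1% against 27.6%.

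The palindromes lay close to the start sites. Of the 13 matches in the 10 genes, 12 (92.3%) were within 100 bp of the nearest start site of their gene, with a median distance of 25 bp. GAA, LAMP1 and MCOLN1 gave 2 matches each, so the matches are not independent and carry no interval. Of 446 matches in 409 other genes, 54.7% were within 100 bp, and the median distance was 82.5 bp. The exception was BECN1, whose match was 264 bp from the nearest start. Matches of ATP6V0D1 and ATP6V1A lay 57 and 69 bp before the nearest start, in intergenic sequence. That of ATP6V1A lay 334 bp before the start of the canonical transcript. Matches of CLN3 and LAMP1 overlapped an annotated start site in untranslated exons. Distances were taken from the middle of each match. A gene with more annotated starts more easily has one nearby, and other genes were not matched for their number of starts. Some regions serve a second gene as well. Among the 32 regions that no other gene shared, 6 (18.8%) held the palindrome, against 2.25% for other genes. The palindrome was searched without its flanking letters, so a match need not be a full CLEAR element. A G before and a C after it stood at 3 of the 13 matches, in GAA and MCOLN1. These 2 genes are 4.44% of those with a promoter region, against 0.965% of other genes with such a match.

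**Figure D2:**
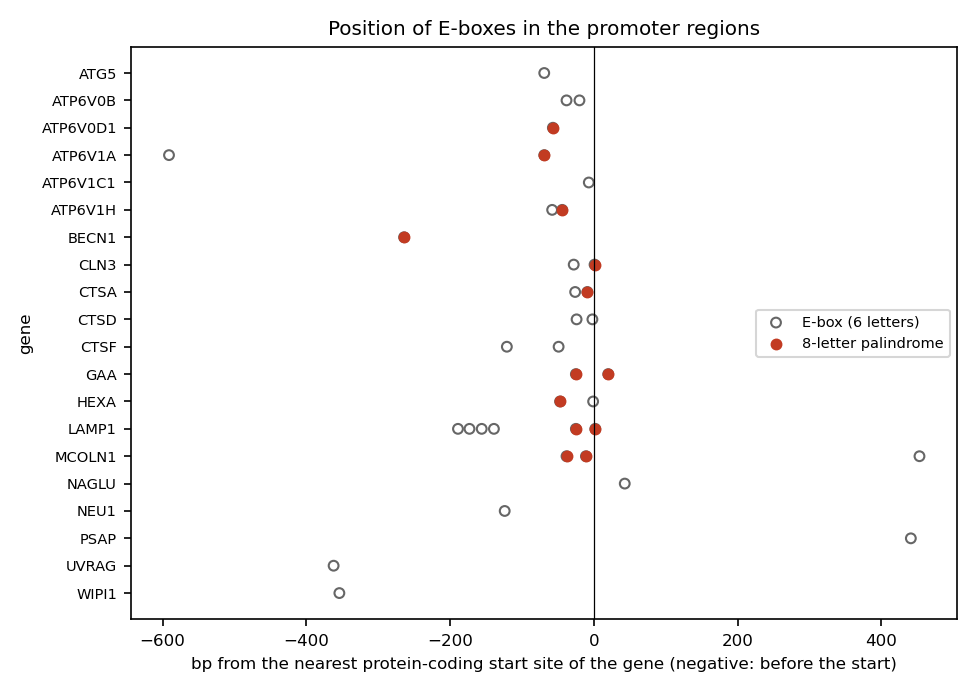
Distance in bp of each E-box CACGTG (open) and each palindrome TCACGTGA (filled) from the nearest start site of its gene, in the 20 genes whose strongest promoter region holds one; negative values lie before the start. Of 36 E-boxes 24 lie within 100 bp of a start, and 12 of the 13 palindromes do.

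At distal regions the E-box was no more frequent at these genes than elsewhere. CACGTG was found in 11 of 122 distal regions (9.02%), against 9.11% of distal regions of other genes. TCACGTGA was found in 1 of 122 (0.82%), near ATG5, against 0.46%. The AP-1 motif was found in 16 of 122 (13.1%), against 11.6%.

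Nearly all of the genes had open promoters. A promoter region was found for 45 of 46 genes (97.8%), against 78.7% of the other protein-coding genes. The exception was CTSS, which encodes cathepsin S, a protease best known from antigen-presenting cells. None of its 7 start sites had a region within 2 kb, the nearest region being 12020 bp away, and the gene had a single distal region, in its own intron, with 179 per kb. A start site lay inside the strongest promoter region in 44 of 45 genes, ULK1 being the exception, against 86.1% of other genes and 90.6% of other genes at like mean signal. A gene with more annotated starts more easily has a promoter region or a start inside it. For neither share were other genes matched for their number of starts.

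The promoters were somewhat more accessible than the median gene. Their median was 831 per kb (95% interval of the median 722 to 1045), against 684 per kb for other genes. Of the 45, 31 stood above the median of all 15493 genes with a promoter region, which is the median gene here and below. Other genes weighted to the same width had 714 per kb, just below the interval of the lysosome and autophagy genes. Those weighted to the same mean signal had 849 per kb, a value that the weighting largely fixes, since the level per kb is made from the mean signal. The interval covers chance in the median among genes, which are not replicates, and not the range of the genes. No test was made. The genes ranged from 55.5 per kb at CTSK to 2535 per kb at UVRAG. Of all genes with a promoter region, 10 of the 45 were above the third quartile, at 1120 per kb, and 6 were below the first quartile, at 359 per kb. In GC content (median 63.1% against 62.9%) and in the share with a distal region (71.1% against 71.0%) they were close to other genes. CpG sites numbered 6.73 per 100 bases against 7.24, and 28.9% of the regions were shared with another gene against 22.9%.

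**Figure D3:**
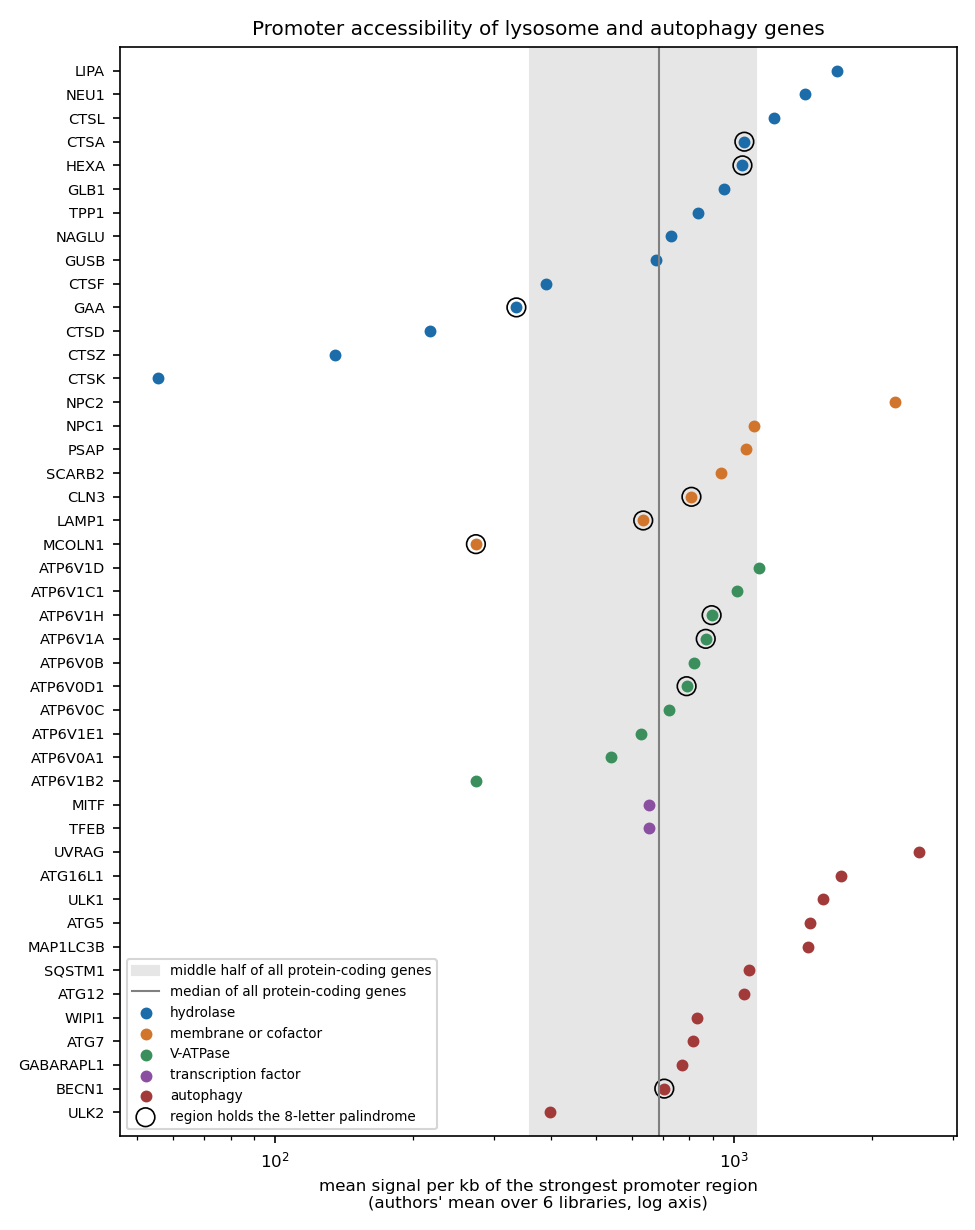
Mean signal per kb (log axis, the authors' mean over 6 libraries, without replicate error) of the strongest promoter region of each of 45 genes, coloured by role. The grey band runs from the first to the third quartile of all genes with a promoter region (359 to 1120 per kb). The line marks their median (686 per kb). Black rings mark the 10 regions with the 8-letter palindrome TCACGTGA, which sit between 274 and 1055 per kb.

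The hydrolases included the 3 lowest promoters of the 45. Their median was 783 per kb, and 8 of 14 were above the median gene. LIPA, which encodes the lipase of cholesteryl esters and triglycerides, had 1682 per kb and NEU1, a sialidase, 1430 per kb. GLB1, the source of senescence-associated beta-galactosidase activity, had 951 per kb, higher than 67.2% of all genes with a promoter region. Its region, at chr3:33096186-33097752, is shared with TMPPE. HEXA had 1045 and CTSA 1055 per kb. The low end was made up of 4 cathepsins and GAA. CTSK, a collagen-degrading protease known from osteoclasts, had 55.5 per kb, with a mean signal of only 18.6 over a region of 336 bp. CTSZ had 135 per kb and CTSD, the main aspartic protease of lysosomes, 217 per kb. GAA had 336 and CTSF 390 per kb, and these 5 were the lowest of the hydrolases.

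Among membrane proteins and cofactors the median was 936 per kb, and 5 of 7 were above the median gene. The genes for the cholesterol transporters stood highest, NPC2 with 2243 per kb and NPC1 with 1107 per kb. NPC2 shares its region with ISCA2. CLN3 had 809 per kb and LAMP1 635 per kb. MCOLN1 was lowest with 274 per kb. LAMP1 and MCOLN1, both with a pair of palindromes, were thus the lowest of this group. Over all roles the 10 promoters with the palindrome had a median of 799 per kb and the 35 without it 837 per kb, and the levels of the former, from 274 to 1055 per kb, lay within those of the latter.

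The V-ATPase subunits were the most even group apart from the transcription factors. Their median was 804 per kb, and 7 of 10 were above the median gene. ATP6V1D and ATP6V1C1, subunits of the ATP-driven part of the pump, had 1138 and 1016 per kb. ATP6V1H, ATP6V1A and ATP6V0D1, which hold the palindrome, lay between 789 and 895 per kb. ATP6V0A1, a subunit of the membrane part, had 541 per kb and ATP6V1B2 had 274 per kb. The regions of 5 of these 10 genes were shared with another annotated gene.

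The autophagy genes had the highest median of the roles, 1067 per kb, and 11 of 12 were above the median gene. This median counts ULK1 by an intronic region, as given below, and was not recomputed with the lower region over its start site. The size of its lead over membrane proteins and cofactors, at 936 per kb, depends on that choice of region. UVRAG, a partner of Beclin 1, had 2535 per kb, higher than 97.5% of all genes with a promoter region. ATG16L1, which directs the attachment of LC3 to membranes, had 1714 per kb. MAP1LC3B, the LC3 protein used to follow autophagosomes, had 1453 per kb in a region shared with FBXO31. SQSTM1, the cargo receptor p62, had 4 promoter regions, with 398, 608, 782 and 1081 per kb. The lowest of the group were BECN1 with 706 per kb and ULK2, a kinase related to ULK1, with 398 per kb. ULK1 itself had 1569 per kb, but in an intronic region whose middle lies 1668 bp after its start site. The region over that start had 831 per kb.

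The genes of the transcription factors were near the middle of all genes with a promoter region. TFEB had 654 per kb and MITF 655 per kb, both just under the median gene, and neither strongest promoter region held an E-box CACGTG. MITF is read from many promoters. Of its 15 annotated start sites 10 had a region within 2 kb, and the levels of its 4 promoter regions were 655, 236, 182 and 262 per kb from the most upstream to the most downstream. The 4 start sites farthest downstream, at positions 69936587 to 69936723 of chromosome 3, had none, nor had the one at position 69758704. Of the 13 start sites of TFEB 9 had a region, and the 4 farthest downstream had none.

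Distal regions were spread unevenly over the genes. 33 genes had at least 1 and 13 had none. WIPI1, which encodes a phosphoinositide-binding protein of forming autophagosomes, had 11, ATG5, ATG7 and MITF had 8 each and SCARB2 had 7. ATG5 and ATG7 encode proteins needed for the attachment of LC3, and SCARB2 encodes the membrane receptor that carries glucocerebrosidase to lysosomes. Of the 122 regions 76 lay in introns, 57 of these in an intron of the gene itself, 35 were intergenic, 6 overlapped coding exons at their middle and 5 untranslated exons. The median level was 227 per kb (interval 179 to 267), against 187 per kb for distal regions of other genes. The regions lay at a median of 17099.5 bp from the nearest start site, against 24004.5 bp, and 55.7% were within 20 kb, against 43.9%.

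The strongest distal regions belonged to 3 genes. The highest was in an intron of SCARB2, at chr4:76200752-76201479, 12404 bp after the nearest start site, with 2684 per kb, against 936 per kb at the promoter of the gene. Further intronic regions of SCARB2 had 1063 and 1037 per kb. A region in an intron of ATG7, at chr3:11291457-11292311, had 1049 per kb, against 815 per kb at its promoter. An intergenic region 17081 bp before WIPI1, at chr17:68474330-68474823, had 1004 per kb, against 831 per kb at its promoter. Such an excess over the promoter was uncommon. Of 121 distal regions of genes with a promoter region 13 (10.7%) were above the promoter of the same gene, against 19.9% for other genes. They belonged to SCARB2 (3 regions), CTSK and WIPI1 (2 each), and ATG7, CTSD, CTSF, CTSZ, GAA and MITF (1 each). CTSK, CTSD, CTSF, CTSZ and GAA are the 5 hydrolases with the lowest promoters, and a low promoter is more easily exceeded. The shares of 10.7% and 19.9% also depend on promoter levels, for which the other genes were not matched. For CTSD the distal region, 21397 bp before the gene, had 833 per kb against 217 per kb. Both distal regions of CTSK lie within ARNT, its neighbour, and the nearest start site does not show which gene a distal region serves.

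**Figure D4:**
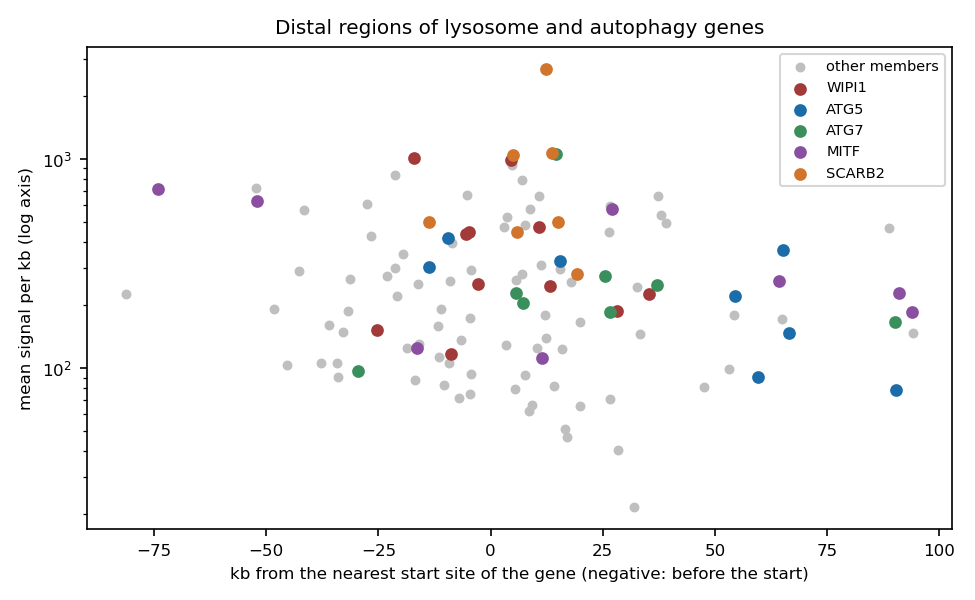
Mean signal per kb (log axis, the authors' mean over 6 libraries) of the 122 distal regions against the distance in kb of their middle from the nearest start site of the gene. The 5 genes with the most distal regions are coloured, and the highest point is the intronic region of SCARB2 with 2684 per kb.

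GLB1 had 3 distal regions, all in its introns, with 491, 536 and 596 per kb. LAMP1 had 5, from 40.4 to 473 per kb. The 8 regions of MITF ran from 111 per kb to 717 per kb, the latter 74064 bp before its nearest start site, and the 5 of TFEB from 93.9 to 575 per kb. The levels at LAMP1 varied more than those at GLB1.

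A wider list of 104 lysosome and autophagy genes outside the 46 was set beside them. Of these 98 had a promoter region, with a median of 772 per kb, and 58 were above the median gene. Those without one were ATG9B, ATP6V0A4, ATP6V0D2, ATP6V1G3, CTSW and MAP1LC3C. Levels ran from 86.5 per kb at TFEC to 2694 per kb at GABARAP, both relatives of genes described above. TCACGTGA was found in 10 of 98 promoter regions (10.2%, interval 5.64 to 17.8), beside the 2.65% of genes outside the 46, and the control TGCGCA in 32.7%.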

How the data were processed

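ATAC-seq of 6 libraries was used, with groups taken from the labels. Per the study's methods, the authors trimmed the reads (Trim Galore), mapped them to hg38 (Bowtie2), discarded mitochondrial and duplicate reads, corrected positions for the transposase offset and called peaks (MACS2), then counted reads in the merged peaks for DESeq2. The mean signal of the deposited table is the authors' average over all libraries of counts divided by size factors. The other 5 value columns hold the authors' own comparison of the groups (fold change, standard error, statistic, p-value and adjusted p-value) and were not used. The table has 0 columns for single libraries, so no test between groups was made and the depth is unknown.

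The genes, roles and lists were chosen with earlier results of these data known. Region starts were taken as counted from 0, the bedtools convention, and are printed 1 higher; this could not be checked. No region passed a chromosome end of the reference. Start sites came from GENCODE 44. The value of a gene is that of its promoter region of highest mean signal. Other genes were weighted to the genes described in 10 equal bins of mean signal or of width. Shares carry 95% Wilson intervals, and medians 95% binomial intervals from order statistics. These cover chance among genes or regions, not replicates. RefSeq promoter windows were matched by symbol. Named genes were GLB1, LAMP1, TFEB, MITF, SQSTM1 and MAP1LC3B, the 2 highest and 2 lowest promoters of each role, genes without a promoter region, the 5 with the most distal regions, the 5 strongest distal regions, and genes with TCACGTGA; the remaining named genes were chosen after their values were seen. Weighting to width, distances and flanking letters of matches, unshared regions and the wider list's motif share were added after seeing the data. The values of 1 marker gene and the sequence stretches of 2 genes are not reported here. Scripts used Python 3.11.15, pandas 2.3.3, SciPy 1.17.1 and pysam 0.24.0, and were tested on simulated data.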

Additional observations from a re-analysis of the deposited data

How the results depend on the processing

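Of 41 alternatives to the counts, medians and shares, 36 stayed within the interval of the value or, for counts, within a ratio of 1.5. The alternatives were promoter windows of 1 and 0.5 kb, start sites of the GENCODE basic set, a minimum mean signal of 50, other ways to join several promoter regions, levels not divided by width, autosomes alone, a distal limit of 50 kb, the nearest start site of any gene type, other spans for motifs, and regions not shared with another gene. The control motif is not counted among them. All of the genes lie on autosomes, so keeping autosomes alone could not change their median level. The tally covers the values of the lysosome and autophagy genes, not the differences of shares or levels from other genes. The 5 that moved a value were as follows. Not divided by width, the median promoter mean signal was 1072.9. The share with CACGTG was 44.4% over whole regions, against 17.8% in 300 bp. The share with TCACGTGA was 4.44% in 300 bp, against 22.2% over whole regions. With the nearest start site of any gene type, 75 distal regions remained assigned to these genes instead of 122, since other genes then lay closer. With a minimum mean signal of 50, the median distal level was 291 per kb. No paired analysis was possible because single libraries have no column in the table, and no library could be left out for the same reason. With 45 genes, the interval of a share spans many percentage points, and a gene's level has no error, so the order of genes close in level is open to replicate error that could not be measured.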
